A study of Homo sapiens with 4 samples.

Results

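Potassium channel genes were taken as the protein-coding genes of chromosomes 1 to 22 whose symbol begins with KCN, further letters and a digit, which gave 93 of 19126 genes in the RefSeq table of GRCh38. Their chromatin was profiled with ATAC-seq, where a transposase tags accessible DNA for sequencing, in 786-O, a human renal carcinoma cell line that lacks functional VHL. The series compared 2 WT control libraries, from negative control cells that express Cas9 and have a WT genotype, with 2 DEK KO libraries, from cells of the same Cas9 background that also received DEK guide RNAs by virus and were sorted as single cells. DEK is a DNA-binding nuclear protein with histone chaperone activity. The labels say that the Cas9 line was itself a clone. They do not tell whether both libraries of a genotype stem from independent clones or cultures, so each p-value across libraries reflects sample-to-sample spread alone, possibly of technical origin.

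Potassium channels let potassium leave or enter cells along its gradient and set the resting membrane potential. Voltage-gated channels open on depolarisation, inward rectifiers and tandem-pore leak channels act near rest, and calcium- or sodium-activated channels follow the ions inside the cell. In the nephron, such channels recycle potassium for sodium reabsorption and secrete it into the urine. The class contains 39 voltage-gated pore genes, 16 inward rectifiers, 15 tandem-pore leak channels, 8 pore genes activated by calcium, sodium or pH, and 15 auxiliary subunit genes.

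Each library was represented by the authors' own peak list, with list lengths on chromosomes 1 to 22 and X of 89563 for WT control replicate 1, 90409 for WT control replicate 2, 102760 for DEK KO replicate 1 and 99508 for DEK KO replicate 2. Overlapping peaks of the 4 lists were joined into regions. A gene was called open when a region within 1 kb of a start was called in all 4 lists, closed when no list had a peak there, and partly called when 1 to 3 lists had one. A start was annotated in the RefSeq promoter table for 69 of the 93 genes, and for the other 24 either end of the gene stood in for it. A call at such a gene can therefore lie at its far end and not at its start. The gene window was the gene span with 20 kb on each side. A peak's strength is given as its percentile of −log10 p within its own list, since fold enrichments and p-values belong to 1 list each. The renal and mesenchymal markers described the line: PAX8, PAX2, CDH6 and VEGFA were open, LRP2 was partly called and CUBN, SLC34A1 and CA9 were closed, while NDUFA4L2 was not matched, and 6 of 6 mesenchymal markers were open. Among the blood markers PTPRC and CD3E were closed and 1 of 6, SPI1, was open. Of the 6 neuronal markers 2 were open, SYT1 and SNAP25, and of the 6 hepatocyte markers 2 were open while ALB was closed. Peaks at the DEK gene do not check the knockout, since the labels do not describe the lesion made there. The DEK start region was called in all 4 lists, at percentiles of 11.9 and 24.1 in the WT control libraries and 39.6 and 57.6 in the DEK KO libraries.

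CpG-rich and CpG-poor promoters were found among open and among closed potassium channel genes, and a few are shown as examples. Each sequence is the RefSeq promoter window of GRCh38.p14, from 250 bases before to 50 bases after an annotated start, 5′ to 3′, with CpG dinucleotides in capitals. KCNS3 (chr2:17878417-17878716, plus strand) was open in every list with many CpGs, and KCNMA1 at its outermost start (chr10:77637759-77638058, minus strand) was also open. KCND3 (chr1:111989619-111989918, minus strand) had the highest CpG ratio of all 107 potassium channel starts and no peak in any list. KCNJ1 (chr11:128867247-128867546, minus strand), which encodes the renal outer medullary channel ROMK, had few CpGs and was closed. KCNN4 (chr19:43780924-43781223, minus strand), the intermediate-conductance calcium-activated channel, had few CpGs and a peak in both DEK KO lists only.
KCNS3: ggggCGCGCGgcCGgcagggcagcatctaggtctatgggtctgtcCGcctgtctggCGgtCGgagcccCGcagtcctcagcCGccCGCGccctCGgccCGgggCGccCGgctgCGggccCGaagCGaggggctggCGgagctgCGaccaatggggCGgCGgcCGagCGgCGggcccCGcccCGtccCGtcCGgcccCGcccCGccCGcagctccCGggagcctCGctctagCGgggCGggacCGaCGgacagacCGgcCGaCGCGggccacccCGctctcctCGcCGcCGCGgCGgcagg
KCNMA1 outermost start: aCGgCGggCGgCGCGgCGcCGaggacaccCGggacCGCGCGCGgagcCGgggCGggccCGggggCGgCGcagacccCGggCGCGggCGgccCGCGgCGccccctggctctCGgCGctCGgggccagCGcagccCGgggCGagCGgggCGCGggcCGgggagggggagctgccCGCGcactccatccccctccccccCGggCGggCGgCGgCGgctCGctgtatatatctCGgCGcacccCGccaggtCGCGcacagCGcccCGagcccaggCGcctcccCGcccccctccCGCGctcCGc
KCND3: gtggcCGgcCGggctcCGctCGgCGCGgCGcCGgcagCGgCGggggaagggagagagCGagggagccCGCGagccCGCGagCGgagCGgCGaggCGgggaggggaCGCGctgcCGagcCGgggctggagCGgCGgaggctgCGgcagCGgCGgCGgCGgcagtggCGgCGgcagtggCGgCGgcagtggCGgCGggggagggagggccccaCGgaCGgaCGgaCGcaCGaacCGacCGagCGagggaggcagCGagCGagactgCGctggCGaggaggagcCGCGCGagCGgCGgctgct
KCNJ1: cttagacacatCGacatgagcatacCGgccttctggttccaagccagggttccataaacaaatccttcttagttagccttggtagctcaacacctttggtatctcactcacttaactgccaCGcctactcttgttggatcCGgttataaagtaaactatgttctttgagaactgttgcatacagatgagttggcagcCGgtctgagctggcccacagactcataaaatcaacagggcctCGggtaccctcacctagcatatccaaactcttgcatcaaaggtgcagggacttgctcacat
KCNN4: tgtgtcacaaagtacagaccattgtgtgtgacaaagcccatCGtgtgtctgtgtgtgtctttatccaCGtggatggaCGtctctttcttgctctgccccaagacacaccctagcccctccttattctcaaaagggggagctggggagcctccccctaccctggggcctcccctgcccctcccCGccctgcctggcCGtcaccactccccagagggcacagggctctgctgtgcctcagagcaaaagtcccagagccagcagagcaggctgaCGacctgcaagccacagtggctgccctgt

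Most potassium channel genes were closed at their starts. Of the 93 genes 22 were open (23.7%, exact 95% binomial interval 15.5 to 33.6), 16 were partly called (17.2%) and 55 were closed (59.1%). The same rule called 60.4% of all protein-coding genes open, 7.87% partly called and 31.8% closed. Intervals and shares cover counting error only. Among genes with an annotated start, 17 of 69 potassium channel genes were open (24.6%), against 63.0% of all genes with one. Every potassium channel window held at least 1 region, whereas 5.54% of all gene windows held none. Of the 55 closed genes 46 had a region called in all 4 lists somewhere in the window. The same share over all closed genes was not counted. The median number of such regions was 2 at closed potassium channel genes and 1 at all closed genes. The closed potassium channel genes were longer, with a median of 25.6 kb against 13.8 kb, and the part of length was not tested.

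The share of open genes was low in each class. Of the voltage-gated pore genes 8 of 39 were open, 7 partly called and 24 closed. No gene of the KCNA family, the Shaker-related channels, was open (0 of 8), nor any of the KCNC family, the fast delayed rectifiers of fast-firing neurons (0 of 4). Of the inward rectifiers 4 of 16 were open, of the tandem-pore leak channels 4 of 15, of the calcium-, sodium- or pH-activated pore genes 2 of 8, and of the auxiliary subunits 4 of 15. Other ion transport genes gave a wider range: 3 of 18 pore genes of voltage-gated sodium and calcium channels were open, namely CACNA1G, SCN9A and SCN11A, against 12 of 26 TRP channels, 13 of 26 chloride channels and 11 of 18 potassium pumps, cotransporters and their regulators. The bar plot of start calls gives the counts for each group.

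**Figure D1:**
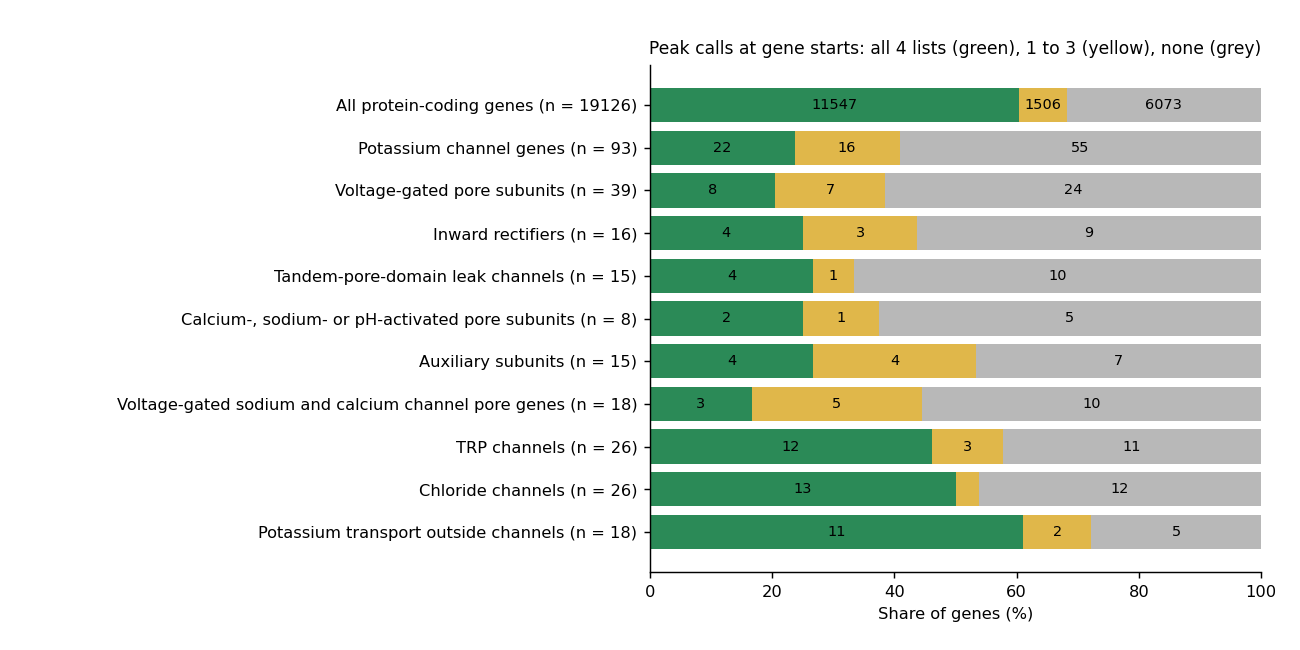
Share of genes (x axis, %) whose start had a region called in all 4 peak lists, in 1 to 3 lists or in none, for all protein-coding genes, the potassium channel genes, their 5 classes and 4 comparison lists. Numbers in the bars are genes, and the potassium channel bar shows 22, 16 and 55.

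Of 17 partner genes 8 were open, among them the calmodulin genes CALM2 and CALM3, the ubiquitin ligases NEDD4 and NEDD4L, the anchoring protein gene AKAP9, and REST with its corepressor gene RCOR1, which silence neuronal genes in other tissues. ABCC8 and ABCC9, the sulfonylurea receptors that assemble with inward rectifiers, were closed, as were DPP6, AMIGO1, LRRC26, LRRC38 and LRRC52. LRRC55 and DPP10 were partly called.

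Among the 13 potassium channel genes chosen for their roles in the kidney, 5 were open, 1 was partly called and 7 were closed. KCNJ16, a subunit of the basolateral channel of the distal nephron, stood at start percentiles 97.9 and 98.9 in the WT control libraries and 93.2 and 86.0 in the DEK KO libraries, listed by replicate number here and below. Both DEK KO values lay below both WT control values. KCNMA1, the pore of the large-conductance BK channel, stood at 94.1 and 96.6 in the WT control libraries and 96.9 and 96.2 in the DEK KO libraries, which overlap. KCNK1, a leak channel of renal tubules, stood at 57.5 and 61.5 in the WT control libraries and 63.9 and 63.3 in the DEK KO libraries, higher in both DEK KO libraries. KCNE1, a small auxiliary subunit of KCNQ1, lay between 44.9 and 52.9 in the 4 lists, and KCNK2, a mechanosensitive leak channel, between 6.22 and 21.2. KCNJ10, the partner of KCNJ16, was called in 3 lists only, at 20.9 in WT control replicate 2 and at 1.21 and 10.5 in the DEK KO libraries.

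The closed renal genes were KCNJ1, KCNJ15, KCNK5, KCNQ1, KCNE3, KCNA1 and KCNA10. A closed start did not mean an empty window. KCNJ15, an inward rectifier gene, had 11 of its 16 regions called in all 4 lists, and the strongest of them (chr21:38277317-38278363), 4.81 kb from the annotated start and inside the gene, stood at 99.7 and 99.5 in the WT control libraries and 99.8 and 99.9 in the DEK KO libraries. This was the highest-ranked region of all 350 regions in potassium channel windows that every list called. KCNJ1 had 4 of 6 regions in all lists and KCNQ1, the pore subunit that pairs with KCNE1 and KCNE3, had 6 of 22. KCNA1 and KCNK5 had none.

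Of 21 genes chosen for their roles in neurons 4 were open, among them KCNQ5, KCND2 and KCNQ3. Of 10 genes studied in tumours 5 were open, namely KCNH1, KCNK1, KCNMA1, KCNJ2 and KCNK9, and KCNA3, KCNN4 and KCNH2 were partly called. The renal, neuronal and tumour lists overlap. KCNQ3 and KCNK9 have no annotated start and were called at a gene end, which may not be the start.

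The 22 open starts covered nearly the whole range of peak strength. The 5 strongest by their lowest value over the 4 lists were KCNS3, KCNMA1, KCNAB2, KCNIP3 and KCNJ16. KCNS3, a silent subunit that modifies other voltage-gated channels, stood at 98.4 and 98.0 in the WT control libraries and 97.8 and 96.1 in the DEK KO libraries (chr2:17878311-17879880). KCNAB2, a cytoplasmic beta subunit, lay between 93.0 and 97.2, in a region that also holds a start of NPHP4. KCNIP3, a calcium sensor that binds voltage-gated channels, lay between 86.2 and 92.7.

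The 5 weakest were KCNK9, KCNK2, KCNJ11, KCND2 and KCNH8. KCNK9, an acid-sensitive leak channel, was called at 32.5 and 1.24 in the WT control libraries and at 61.3 and 32.2 in the DEK KO libraries, and its 60.0-point gap between libraries was the widest of the 22. KCNJ11, the pore of the ATP-sensitive channel, lay between 28.3 and 38.7, KCND2, an A-type voltage-gated channel, between 32.5 and 54.4, and KCNH8, a voltage-gated channel of the ELK type, between 38.7 and 51.3. KCNK9, KCNJ11 and KCNQ3 have no annotated start in the table and were called at the gene end of lower coordinate, as was KCNMB4. The table gives no strand for these genes, so their peaks may lie at the far end of the gene. They count as open by the rule only. The median over the 22 genes was 60.8 and 69.6 in the WT control libraries and 69.3 and 64.1 in the DEK KO libraries. Over all open genes it was higher in every library, between 82.5 and 84.8.

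**Figure D2:**
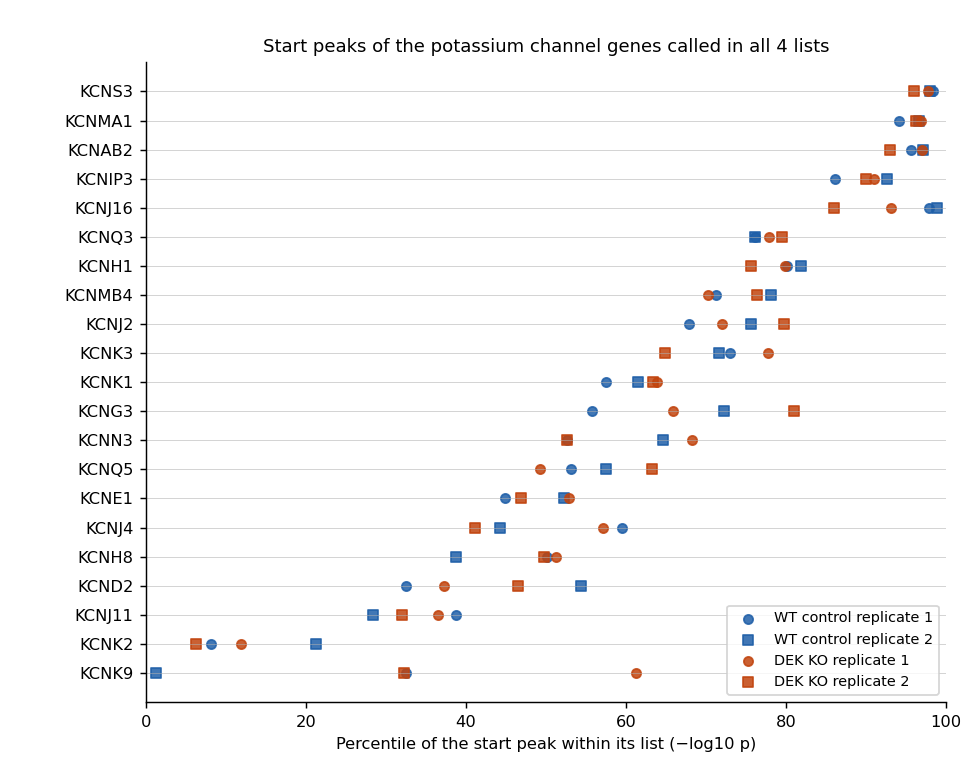
Percentile of −log10 p within its own list (x axis) of the start peak of 21 of the 22 open potassium channel genes (y axis), with 1 point for each library. WT control libraries are blue and DEK KO libraries orange, and the rows run from KCNK9 at the bottom to KCNS3 at the top. For genes without an annotated start, the peak lies at a gene end that may not be the start.

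Few of these start peaks differed between genotypes without overlap. In 2 of 22 genes, KCNK1 and KCNQ3, both DEK KO percentiles lay above both WT control percentiles, and in 3, KCNJ16, KCNH1 and KCNS3, both lay below (9.09% and 13.6%). Over all open genes 23.2% lay above and 15.9% below, which is the background for these counts. KCNJ16 had the largest of these differences, a DEK KO mean 8.81 percentile points under the WT control mean. Its fold enrichments, each on the scale of its own list, overlapped between genotypes. They were 9.1 and 9.4 in the WT control libraries and 9.1 and 9.7 in the DEK KO libraries. KCNQ3, a subunit of the M-current channel, went from 76.1 in both WT control libraries to 78.0 and 79.5 in the DEK KO libraries. The KCNQ3 peak lies at the gene end of lower coordinate, which may not be its start. KCNH1, a voltage-gated channel often found in tumours, went from 80.2 and 82.0 to 79.8 and 75.7. The per-library median of the 22 genes was 65.2 ± 6.21 (SD, n = 2) in the WT control and 66.7 ± 3.65 (SD, n = 2) in the DEK KO libraries, a difference within the spread (exact permutation test, two-sided, p = 1, with 0.33 the smallest p that 6 assignments allow). The higher value at KCNK1 and at KCNQ3 was lost when the lists were cut to equal length, with differences of -0.409 and -0.0307.

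At 4 genes the start region was called in 1 genotype only, KCNN4 and KCNH2 in the DEK KO libraries and KCNA2 and KCNV1 in the WT control libraries. Among all genes a KO-only start was found for 0.758% and a WT-only start for 0.45%. At KCNN4 the KO-only region (chr19:43780982-43781385) lay 9 bp from the start, covered 242 of the 300 bases printed above and stood at 33.0 and 46.1, with fold enrichments of 4.08 and 5.08 in DEK KO replicates 1 and 2. At KCNH2, the hERG channel, it lay 986 bp from the start at 14.6 and 7.86, and was no longer KO-only with lists of equal length. At KCNA2, a Shaker-related voltage-gated channel, the WT-only region (chr1:110630847-110631179) lay 261 bp inside the gene at 44.6 and 62.0, with folds of 5.75 and 6.90. At KCNV1, a silent voltage-gated subunit, it lay 998 bp from a gene end at 5.57 and 34.4. Absence from a list means that the peak caller's limit was not passed there, not that the DNA was closed.

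The other 12 partly called starts had a peak in 1 library or in libraries of both groups. KCNIP4, a potassium channel interacting protein, reached the highest percentile, with 29.5 in WT control replicate 2 and 48.3 and 64.6 in the DEK KO libraries. KCNC4 stood at 23.0 in WT control replicate 1 and at 56.9 and 52.9 in the DEK KO libraries. KCNJ6, a G protein-gated inward rectifier, stood at 29.9 and 31.8 in the WT control libraries and at 23.9 in DEK KO replicate 2 only. The starts of 26 and 31 potassium channel genes had a peak in the WT control libraries and those of 26 and 32 in the DEK KO libraries, with no difference in the mean beyond the spread (28.5 ± 3.54 against 29.0 ± 4.24, SD, n = 2, exact permutation p = 1).

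Open starts were on median the richest in CpG and closed starts the poorest. The CpG ratio, observed over expected in the promoter window, had a median of 0.743 over 20 open starts, 0.603 over 17 partly called starts and 0.507 over 70 closed starts. Over the starts of all genes the medians were 0.836, 0.529 and 0.338. Of 52 starts with a ratio over 0.6, 14 were open (26.9%), against 78.1% of such starts over all genes. Among starts at or under 0.6, 6 of 55 were open (10.9%), against 27.4%. KCND3, an A-type channel, had the highest ratio, 1.16, and no peak.

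**Figure D3:**
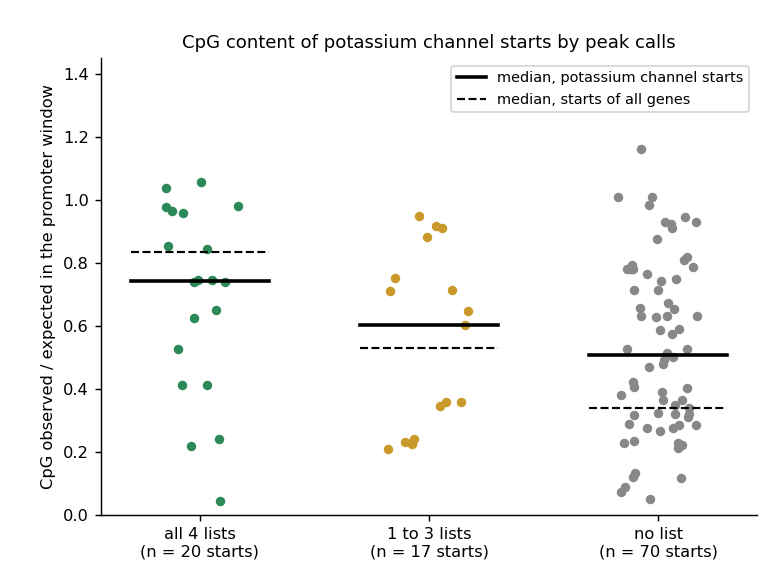
CpG observed over expected in the 300-base promoter window (y axis) of each annotated potassium channel start, grouped by its calls in the 4 lists (x axis). Each point is 1 start, spread sideways for display only, solid lines are medians (0.743, 0.603 and 0.507) and dashed lines are the medians over the starts of all genes.

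The 6 open starts with a ratio at or under 0.6 belonged to KCNMA1, KCNJ16, KCNJ4, KCNE1, KCNN3 and KCNAB2. Of these 6 windows 3 held TGANTCA, the motif of AP-1 factors, against 15.2% of such windows over all genes, and none of the 14 open windows with a higher ratio did, against 3.22%. Among closed starts with a low ratio 4 of 41 potassium channel windows held it (9.76%), close to the 9.06% of such windows over all genes. This split was chosen after the values were seen. The 3 windows are KCNJ16 (chr17:70074975-70075274, plus strand), KCNJ4 (chr22:38443979-38444278, minus strand) and the internal start of KCNMA1 (chr10:77350712-77351011, minus strand), from the same RefSeq table of GRCh38.p14, with the motif in capitals.
KCNJ16: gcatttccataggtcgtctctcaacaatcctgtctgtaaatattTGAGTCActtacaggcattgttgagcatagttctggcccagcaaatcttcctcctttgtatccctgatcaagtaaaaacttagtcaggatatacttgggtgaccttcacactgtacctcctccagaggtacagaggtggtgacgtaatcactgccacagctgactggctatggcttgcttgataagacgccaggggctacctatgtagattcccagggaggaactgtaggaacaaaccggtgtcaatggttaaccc
KCNJ4: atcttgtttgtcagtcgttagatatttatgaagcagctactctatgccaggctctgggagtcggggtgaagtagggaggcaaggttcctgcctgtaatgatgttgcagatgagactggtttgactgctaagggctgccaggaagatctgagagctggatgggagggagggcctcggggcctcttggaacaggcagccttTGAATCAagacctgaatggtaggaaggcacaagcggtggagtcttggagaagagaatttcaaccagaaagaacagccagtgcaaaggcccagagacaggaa
KCNMA1 internal start: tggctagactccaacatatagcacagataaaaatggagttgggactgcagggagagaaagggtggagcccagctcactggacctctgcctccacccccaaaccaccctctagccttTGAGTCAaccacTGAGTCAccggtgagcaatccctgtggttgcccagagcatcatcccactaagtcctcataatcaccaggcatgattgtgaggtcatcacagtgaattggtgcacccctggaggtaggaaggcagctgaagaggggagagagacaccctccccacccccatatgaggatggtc

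The motif began 206 bases before the KCNJ16 start, and 134 and 122 bases before the internal KCNMA1 start, where the window holds it 2 times, and these matches lay within the called regions. At KCNJ4, an inward rectifier of excitable cells, it began 51 bases before the start and lay outside the called region, which reached only 10 bases into the window. A match describes letters and not bound protein. The motifs below were searched on both strands of all 107 potassium channel windows and 21156 windows of all genes. CCGGAAG, an ETS-type motif, was in 3.74% of potassium channel windows and 12.9% of all windows. These shares pool open, partly called and closed starts. In closed windows the motif was in 5.71% for potassium channel genes and 3.73% for all genes, and in open windows in 0% and 19.1%. Pooled in the same way, CAGCACC, part of the element that REST binds, was in 14.0% of potassium channel windows and 7.89% of all windows. GGACAG, the other part, was in 23.4% and 21.1%. GGGCGG, the GC box, was in 50.5% and 56.6%, CCAAT in 34.6% and 34.4%, TATAAA in 8.41% and 9.51%, ACGTG in 20.6% and 22.9%, and TGANTCA in 8.41% and 6.08%.

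The windows of the 93 genes held 852 regions. All 4 lists called 350 of them (41.1%), against 47.9% of the regions in all gene windows. KO-only regions numbered 61 (7.16%, exact 95% binomial interval 5.52 to 9.10) and WT-only regions 19 (2.23%, 1.35 to 3.46), and over all gene windows 5.58% were KO-only and 2.58% WT-only. KO-only regions made up 76.3% of the one-genotype regions (65.4 to 85.1), against 68.4% in all gene windows. The DEK KO lists were the longer ones, and when every list was trimmed to its 89563 strongest peaks these shares were 65.2% and 53.8%. A KO-only region was found in the windows of 34 of the 93 genes (36.6%) and of 26.7% of all genes, and a WT-only region in 17 (18.3%) and 13.5%. Potassium channel genes were longer, with a median of 40.7 kb against 24.5 kb, and the part of length in these shares was not tested. Chromosome 1 carried 8 of the 19 WT-only and 5 of the 61 KO-only regions, and over all gene windows of chromosome 1 the KO-only share was 56.3%. The other chromosomes carried 11 WT-only and 56 KO-only regions.

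The number of peaks in these windows was 515 and 532 in the WT control libraries and 607 and 609 in the DEK KO libraries, so the groups did not overlap. The means were 523.5 ± 12.02 and 608 ± 1.41 (SD, n = 2), a ratio of 1.16, with the smallest p the design allows (exact permutation test, two-sided, p = 0.33). As a share of its list each library placed 0.591% and 0.604% of its peaks there in the WT control and 0.607% and 0.629% in the DEK KO libraries. All gene windows held 63517 and 64230 peaks in the WT control and 70840 and 69335 in the DEK KO libraries. The difference of 84.5 peaks between the means was 16.5 with lists of equal length and 41.5 with a −log10 q of at least 5.

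The strongest KO-only regions lay away from starts, 4 of the first 6 inside genes and 2 in flanks. In KCNMB2, a beta subunit of the BK channel whose start was closed, a region 241 kb from the nearest start (chr3:178777421-178778466) stood at 76.5 and 89.0 in the DEK KO libraries, with fold enrichments of 9.96 and 15.1. In KCNIP1, an interacting protein of A-type channels, one at 51.5 kb (chr5:170451799-170452505) stood at 74.5 and 81.5 with folds of 9.46 and 13.9. These were followed by regions in KCNN1, a small-conductance calcium-activated channel (chr19:17960040-17960466, 64.1 and 58.8), in the flank of KCNJ6 (chr21:37927491-37928169, 54.0 in both), in KCNK13, a leak channel (chr14:90168263-90169065, 51.3 and 54.4), and in the flank of KCNH2 (chr7:150937976-150938857, 46.5 and 78.6). All 6 remained KO-only with lists of equal length. This follows from their choice by rank, since the trimming removed only the lowest peaks and added none.

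The remaining KO-only regions were mostly weak. The lower of the 2 percentiles had a median of 22.7 over the 61 regions, 5 were over 50 (8.2%), and over all gene windows the median was 21.6 and 9.34% were over 50. Inside gene spans lay 43 of them and in flanks 18, at a median of 28.3 kb from a start, and 2 lay within 1 kb of a start. With equal lists 45 of the 61 kept their class.

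Among the WT-only regions KCNA2 had the strongest, given above, and 0 of the 19 had both percentiles over 50, against 3.57% of WT-only regions in all gene windows. The next were in the flank of KCNJ13, an inward rectifier of epithelia (chr2:232755228-232755920, 47.7 and 35.9), in KCNK2 (chr1:215133328-215134097, 51.5 and 34.5), in the flank of KCNE3 (chr11:74453321-74453662, 33.7 and 44.2), in KCNC2 (chr12:75087639-75088355, 31.1 and 26.1) and in KCNJ1 (chr11:128859757-128860279, 25.2 and 36.9). All 19 kept their class with equal lists. That trimming took no peak from WT control replicate 1 and few from WT control replicate 2, so it could hardly end a WT-only call. The KCNJ1 region depends on how peaks are joined: with peaks joined only where the overlap covers 50% of the shorter, it split into 1 peak of each WT control list and was no longer WT-only.

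A surplus of at least 2 KO-only over WT-only regions was found at 14 genes, and no gene had such a surplus of WT-only regions. Over all genes these shares were 5.14% and 1.17%, and the 14 genes are 15.1% of the 93. The part of gene length in this count was not tested. KCNMA1 had 6 KO-only and 0 WT-only regions, KCNIP1 had 4 and 0, KCNQ3 and KCNN1 had 3 and 0, KCNJ6 had 4 and 2 and KCNIP4 had 3 and 1. Among the others KCNN3, KCNQ1, KCNC1, KCNG4, KCNH7, KCNE2 and KCNH2 had 2 and 0. Of the 3 KO-only regions of KCNQ3, 2 lay at the bottom of their lists, with lower percentiles of 0.449 and 0.00195. No one-genotype region was found at 48 of the 93 genes, and 6 genes had both kinds.

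**Figure D4:**
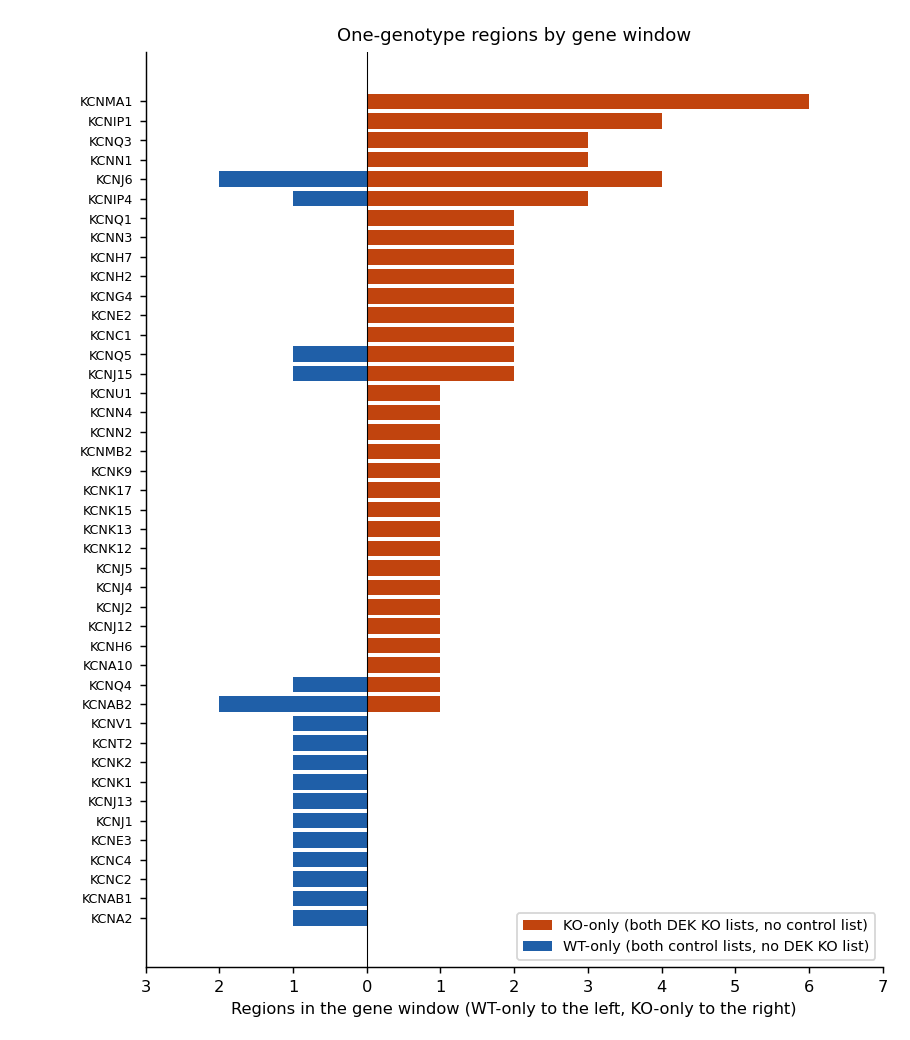
Number of KO-only regions (right, orange) and WT-only regions (left, blue) in the window of 43 of the 45 potassium channel genes (y axis) with at least 1 of them. KCNMA1 leads with 6 KO-only regions, and the WT-only bars reach 2 at KCNJ6 and KCNAB2.

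KCNMA1 held the most regions, 61, and the most called in all 4 lists, 27. It was followed in shared regions by KCNIP1 with 21 of 39, KCNQ5, an M-current subunit, with 18 of 36, KCNJ6 with 14 of 30 and KCNAB1, a beta subunit, with 13 of 30. Per 100 kb of window, regions called in all 4 lists numbered 2.31 over the potassium channel genes and 3.36 over all genes. KCNMA1 had 2 open starts of different kinds. The outermost start, with a CpG ratio of 0.982, lay in a region of 2382 bp (chr10:77635449-77637830) at 25.8 and 27.2 in the WT control libraries and 35.9 and 32.3 in the DEK KO libraries, higher in both DEK KO libraries. The internal start, with a ratio of 0.0447, lay in a region of 1288 bp (chr10:77350225-77351512) at 94.1 to 96.9 in the 4 lists, which overlap between genotypes. A further intronic region of KCNMA1 (chr10:77415971-77417195) stood at 94.0 to 94.9.

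KCNIP1 was closed at both annotated starts although it held 3 of the 6 regions whose lowest percentile was highest among the 350. A region 66.8 kb from the nearest start (chr5:170570768-170572768) stood at 99.7 and 98.8 in the WT control libraries and 98.9 and 99.8 in the DEK KO libraries. A second (chr5:170521944-170523461) stood at 99.5 in both WT control libraries and 99.2 and 97.9 in the DEK KO libraries, and another (chr5:170596819-170597706) at 98.1 and 96.1 against 99.4 and 99.6. The plot of both genes along their length shows no region called in all 4 lists in the first stretch after the outermost KCNIP1 start, and a series of them further along.

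**Figure D5:**
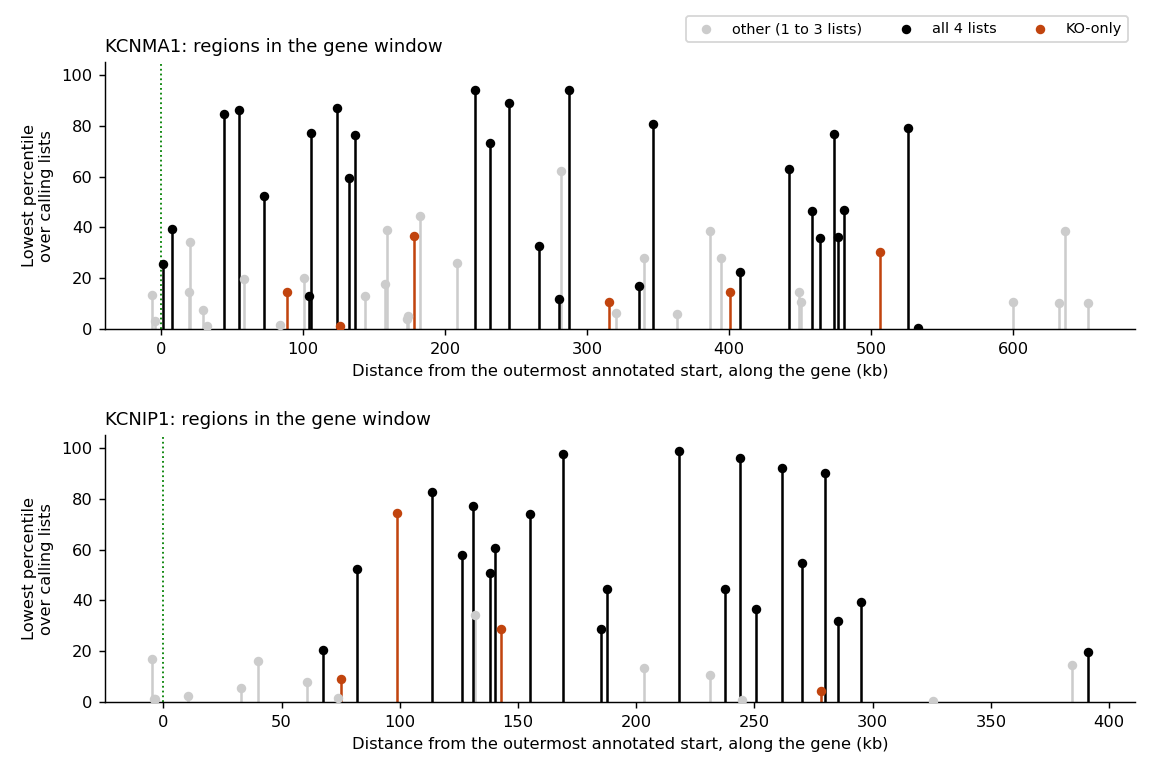
Regions in the windows of KCNMA1 and KCNIP1 by distance of their centre from the outermost annotated start, in kb along the gene (x axis), and lowest percentile over the lists that called them (y axis). Black stems were called in all 4 lists, orange stems are KO-only (6 in KCNMA1, 4 in KCNIP1), grey stems are other regions, and the dotted line marks the start.

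Of the 350 regions called in all 4 lists, 102 had both DEK KO percentiles above both WT control percentiles (29.1%) and 68 had both below (19.4%). Over all gene windows 30.1% lay above and 18.9% below, and these shares are close to those of the potassium channel windows. The median percentile was 61.2 and 63.7 in the WT control and 65.8 and 66.2 in the DEK KO libraries (exact permutation test, two-sided, p = 0.33, the smallest the 6 assignments allow). Over all gene windows it was 65.3 and 65.9 against 69.2 and 68.2. This rise was lost with lists of equal length, where the difference was -0.542 points.

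Single shared regions moved much further, and those named here were chosen after their values were seen. In KCNK2 an intronic region (chr1:215043558-215044793) went from 88.0 and 85.8 in the WT control to 47.3 and 6.22 in the DEK KO libraries. In KCNT2, a sodium-activated channel, one went from 81.2 and 81.0 to 38.3 and 42.2 (chr1:196438009-196438754). In KCNC1, a fast delayed rectifier with a closed start, a region of 1530 bp (chr11:17765227-17766756) went the other way, from 11.3 and 21.0 to 70.9 and 71.3, and in KCNQ5 one went from 27.8 and 18.4 to 64.7 and 62.2 (chr6:72861446-72862752). In none of these 4 did the groups overlap, and each lay more than 29 kb from a start of its gene. Another region in the KCNJ16 window (chr17:70089541-70090488) also had both DEK KO values below both WT control values, from 73.8 and 81.7 to 49.6 and 38.1.

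Some windows share regions. There are 12 genes whose windows overlap in pairs, namely KCNA2 with KCNA3, KCNJ10 with KCNJ9, KCNJ1 with KCNJ5, KCNJ16 with KCNJ2, KCNIP1 with KCNMB1 and KCNK17 with KCNK16, and shared regions were counted once in totals. KCNJ12 and KCNJ18 are near-identical copies, so their calls are uncertain. A region in a window is not thereby tied to the gene, and no expression was measured in these files.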

How the data were processed

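ATAC-seq peak lists of 2 WT control and 2 DEK KO libraries of 786-O cells were used, 1 list for each library, so peaks were called per library. Among the tools in the submitters' processing notes are MACS2 2.2.7.1, a peak caller, and Bowtie2 2.2.5, an aligner, and the build is GRCh38. Settings and read shifting are not given in the sources used here. Library text in the labels describes an mRNA kit. The deposited columns hold a score, the authors' fold enrichment (a ratio of signal to background at the summit), −log10 p and −log10 q, and a summit offset. The lowest deposited −log10 q was 1.30 to 1.32 in the lists. Read depth is not in the lists, and list length stands in for it. Peaks of chromosomes 1 to 22 and X were merged by overlaps of at least 1 bp, giving 138467 regions, and counted with Python 3.11.15, numpy 2.4.6, pandas 2.3.3 and scipy 1.17.1, after tests on simulated lists.

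A KO-only region has a peak in both DEK KO lists and no WT control peak, and a WT-only region the reverse. Shares carry exact binomial intervals, and library values an exact permutation test over 6 assignments. The genes, lists and motifs were chosen with earlier results of these data known. Named were all starts called in 1 genotype, the 6 strongest one-genotype regions per class, genes with a surplus of at least 2, the 5 strongest and 5 weakest open starts, up to 4 shifts per direction, the 5 genes with most shared regions and the renal list. Alternatives were equal list lengths, −log10 q of at least 5, other start and window distances, left-out chromosomes, libraries and genes, and a replicate block. Same-numbered libraries did not deviate together (correlation 0.0124 over 62686 regions). A few gene-level values are not reported here.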

Additional observations from a re-analysis of the deposited data

How the results depend on the processing

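With lists of equal length the KO-only share of one-genotype regions moved to 65.2%, the difference of medians over shared regions turned to -0.542 percentile points (3.54 as reported) and that over start regions to -3.31 (1.47 as reported), and the start differences of KCNK1 and KCNQ3 to -0.409 and -0.0307. The cause was not tested beyond the shorter lists themselves. Taking each replicate number alone as a replicate block gave KO-only shares of 67.5% and 61.8%, and sign flips within the block gave p = 0.5 for peaks per library and for shared regions and p = 1 for start regions (exact, smallest possible 0.5). Without 1 library each in turn, the KO-only share ranged from 53.3% to 78.6%, lowest without WT control replicate 1. The KO-only count ranged from 93 to 149 and the WT-only count from 37 to 85, since 1 library then decides a group's call. The start-region difference ranged from -0.601, without WT control replicate 1, to 6.24. Without chromosomes 1 and 7 the WT-only count was 11. The count of open genes ranged from 16, with a start distance of 250 bp, to 24. With a −log10 q of at least 5, the mean percentile differences of the WT-only regions at KCNC2, KCNE3 and KCNJ1 moved to -12.8, -25.7 and -16.0. Those at KCNJ13 and KCNK2 moved to -28.75 and -30.2. The KO-only regions at KCNIP1, KCNN1, KCNJ6 and KCNK13 moved to 71.9, 50.9, 41.4 and 39.9, and the KCNN4 start to 22.8. Of all values for single starts, regions and subfamilies, those named here included, 435 kept their direction and size, 29 moved and 2 reversed. Depth is unknown, so a missing call can be a shallow library.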

Other observations

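Genes of the same symbol pattern on chromosome X lie outside the rule. KCND1, an A-type channel gene, was called at its start in 3 lists, at 8.41 in WT control replicate 2 and 16.8 and 10.5 in DEK KO replicates 1 and 2, and had no one-genotype region. KCNE5, an auxiliary subunit gene, had no peak at its start in any list.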
